A study of Mus musculus with 3 samples.

Results

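Contacts of promoters with fragments more than 10 Mb away on the same chromosome were taken from a Capture-C experiment in mouse erythroid cells. A contact was a pair of a captured promoter fragment, called a viewpoint, and another DpnII restriction fragment, and it was a member when the midpoints of both lay more than 10 Mb apart on an autosome. Viewpoints whose name appears more than once in the list were left out. Of 47812899 contacts in the series, 21410935 were members, and they joined 6975 viewpoints with 4181230 fragments. One viewpoint, Yme1l1_Mastl, had a listed end beyond the end of its chromosome, which gave a wrong midpoint. Its position was taken from the DpnII map instead, as was that of another viewpoint whose listed end missed the map by a few bases, and text attached to 2 listed ends was removed. The midpoints as listed would have given 21418416 members.

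The cells were taken from the spleen of C57BL/6-cross-CBA/J F1 animals, hybrid mice that had received 3 doses of phenylhydrazine 12 h apart and were killed on day 5. Phenylhydrazine lyses red cells, and the spleen then fills with erythroid precursors, so that cells with CD71 and ter119 were more than 80% of the spleen. Cells were selected with beads for ter119, a surface antigen of the red cell lineage. All 3 libraries belonged to this group, so no other cell type or treatment was compared, the labels do not say whether each library came from a separate mouse, and with no RNA measured the cell type could not be checked by its marker genes.

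Chromosomes fold so that stretches of active chromatin lie near other active stretches, and inactive stretches near other inactive ones, also over many megabases. Such stretches are called the A and B compartments. The A compartment is known to be rich in genes, transcription and GC bases, and the B compartment is known to be poor in genes, late in replication and often at the nuclear lamina. In erythroid precursors the nucleus condenses before it is lost, while genes for haemoglobin, heme synthesis and the red cell skeleton are highly transcribed.

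Values were the deposited reporters, the unique ligation events of a viewpoint with a fragment, per 100000 reporters of that viewpoint on its own chromosome. The 3 library columns carry no names and are called a, b and c. Member contacts held 5354787, 11172202 and 11071702 reads in libraries a to c, and the median viewpoint had 400, 824 and 814.5 of them. Of the member contacts, 78.6% rested on 1 read in all libraries together, so values are given for sums over 1 Mb bins or over groups of viewpoints. Given each viewpoint's total, the read counts of bins differed between libraries b and c by a chi-square of 1.21 per bin, above but close to the value of 1 that counting error gives, against 12.2 and 12.1 when library a was set against b and against c. The study describes its libraries as independent, and this closeness does not show that b and c are one library. As the more cautious choice they were counted as 1 sample by their mean, and each mean ± SD has n = 2. A total of 161 deeply sequenced viewpoints between 50 and 100 Mb of chromosome 9 supplied from 17.2% to 18.7% of the reads in each library but from 2.69% to 2.73% of the scaled signal.

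A few far contacts were far stronger than the rest, and the sequence of both ends was compared for these. The 200 member pairs with the most reads had from 16 to 334 reads and came from 85 viewpoints, with 84 of the pairs from the deep stretch of chromosome 9. In 21 of 200 (10.5%, exact 95% binomial interval 6.62% to 15.6%) viewpoint and fragment shared an identical run of at least 30 bases on either strand, against 17 of 7036 far pairs with 1 read (0.242%, 0.141% to 0.387%), taken at fixed steps through the table. Among the 1000 highest pairs the share was 3.5%, and with runs of at least 40 bases it was 6.5% of the 200. Intervals cover counting error only. The stretches below are the shared runs, from mm9, of 4 of the 7 strongest pairs, shown so that the length and kind of each run can be seen. Capitals mark bases that are identical in viewpoint and contacted fragment, lower case marks up to 15 bases of the genome beside the run at the contacted place, which for Itpa and Kri1 lie past the end of the contacted fragment, and all are written in the direction of the viewpoint's plus strand. Runs that reach into an annotated untranslated region, and long runs, are printed in part. Contacted fragments are listed without part of the DpnII site at each end, and the runs include those bases.
Itpa chr2:130493606-130493635 and chr2:94225226-94225255: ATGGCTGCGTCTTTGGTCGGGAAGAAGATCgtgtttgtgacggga
Kri1 chr9:21092208-21092357 and chr9:123840158-123840307: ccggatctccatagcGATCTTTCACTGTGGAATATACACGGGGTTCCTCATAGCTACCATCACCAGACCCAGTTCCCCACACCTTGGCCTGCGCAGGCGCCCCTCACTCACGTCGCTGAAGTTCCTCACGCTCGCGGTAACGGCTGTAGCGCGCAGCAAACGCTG
Rsl24d1 chr9:72961099-72961151 and chr9:47477904-47477956: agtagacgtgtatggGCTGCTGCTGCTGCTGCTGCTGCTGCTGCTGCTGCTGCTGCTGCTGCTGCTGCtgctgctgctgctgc
Rasgrf1 chr9:89804271-89804312 and chr9:49756187-49756228: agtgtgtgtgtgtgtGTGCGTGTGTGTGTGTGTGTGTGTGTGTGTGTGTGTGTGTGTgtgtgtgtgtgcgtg

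The strongest pair joined the promoter of Itpa, an enzyme that clears deaminated nucleotides, with chr2:94225228-94226128, 36.3 Mb away, by 80, 146 and 108 reads in libraries a, b and c. The annotation places the pseudogene Itpa-ps1 there, inside Ttc17, and the shared run of 56 bases includes the start of the Itpa reading frame printed above. Kri1 and chr9:123839979-123840305, 103 Mb apart, were joined by 58, 93 and 75 reads, and the 331 bases of the viewpoint fragment were identical throughout on the other strand. The runs of Rsl24d1 (35, 48 and 45 reads) and Rasgrf1 (45, 35 and 32 reads) were simple repeats of GCT and of GT. Other strong pairs shared no word of 20 bases: Apbb1, an adaptor of the amyloid precursor protein, and chr7:148227089-148227300 had 62, 118 and 97 reads, and Gk5 and chr9:63094449-63094906, in an intron of Map2k5, had 16, 88 and 69. All 3 libraries held each of these pairs. The part of misplaced reads in them was not tested.

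Contacts beyond 10 Mb made up a large share of all contacts on the same chromosome. The mean viewpoint had 31.7%, 34.8% and 34.7% of its signal there in libraries a, b and c (mean 33.2% ± 2.13, SD, n = 2). Library a was the lowest, and libraries b and c lay close together. Shares of chromosomes ran from 24.7% ± 1.93 on chromosome 19, the shortest autosome, to 38.5% ± 2.18 on chromosome 1, the longest. Across the 19 autosomes the share went with chromosome length (Spearman's rank correlation 0.59, Pearson's r 0.79, as a description of chromosomes that share libraries). Length also sets how much of a chromosome lies beyond 10 Mb. For the mean viewpoint this was 71.7% of the listed fragments on chromosome 19 and 89.7% on chromosome 1. Per Mb within that reach the order was reversed, with a share of 0.561% on chromosome 19 and 0.217% on chromosome 1.

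Viewpoints with few neighbours had the larger far shares. The median share was 41.2% ± 1.90 for 949 viewpoints whose own 1 Mb bin held 1 or 2 listed viewpoints, 36.8% ± 2.26 for 1870 viewpoints with 3 to 5, 32.6% ± 2.38 for 1630 with 6 to 9 and 27.3% ± 2.34 for 2531 with 10 or more. The order was the same in each library, for example 39.9%, 35.2%, 30.9% and 25.7% in library a. Among 4147 viewpoints with at least 5000 events, the share ran from 10.4% to 62.3% with a median of 33.8%. The highest were C130026I21Rik on chromosome 1, with 59.6%, 65.1% and 64.8% in libraries a, b and c, Cdk5rap2, a centrosome protein, with 61.8%, 60.4% and 62.3%, and Fbxo8_Cep44, with 61.3%, 59.2% and 59.9%. The lowest were Fam89b in the bin with the most listed viewpoints, 30, with 9.31%, 11.6% and 11.5%, and the interferon receptor genes Ifnar2, with 9.94%, 11.8% and 13.9%, and Ifnar1, with 9.62%, 13.9% and 13.8%. These viewpoints were picked by their mean share, so the gap between the high and the low ones follows from that choice.

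The signal per fragment fell with distance, slowly at first and then faster. It was 0.356 ± 0.0140 reporters per 100000 and listed fragment at 10.6 Mb, 0.313 ± 0.0154 at 21.1 Mb, 0.146 ± 0.0133 at 42.2 Mb and 0.0298 ± 0.00213 at 84.1 Mb. The slope on log scales between 10 and 100 Mb was -1.27, -1.24 and -1.22 for the 3 libraries (mean -1.25 ± 0.0308, SD, n = 2). Since the curve bends, the slope summarises it only roughly.

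**Figure D1:**
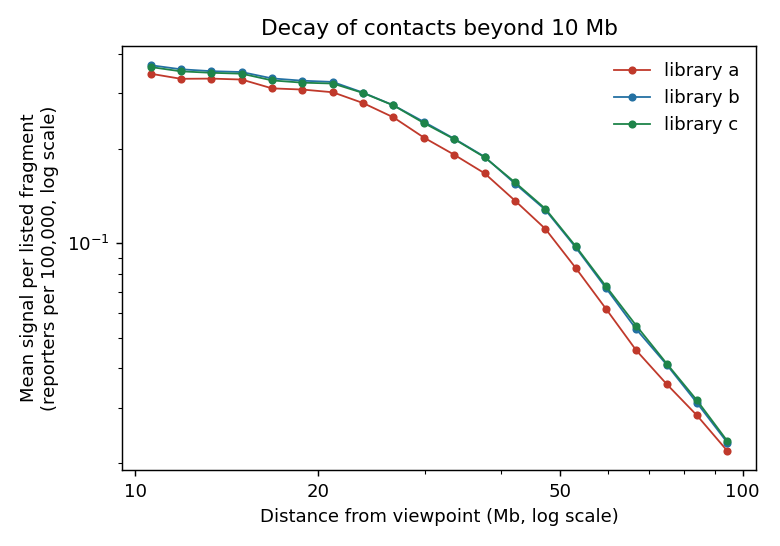
Mean signal per listed fragment (reporters per 100,000, log scale) against distance from the viewpoint (Mb, log scale), with a point for each of 20 distance classes and a line for each library. All 3 curves stay nearly flat up to about 21.1 Mb and then fall, with library a the lowest, and the mean drops from 0.356 at 10.6 Mb to 0.0226 at 94.4 Mb.

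To find regions that were contacted from afar more or less than distance alone gives, the genome was divided into 1 Mb bins. The far total of each viewpoint was shared out over the fragments listed in each bin according to their distance, and the sum over viewpoints was the expected signal of the bin. The ratio of observed to expected signal could be tested in 2398 of 2482 bins, those with at least 500 listed fragments. With limma, at an adjusted p under 0.05 by the Benjamini-Hochberg method and a log2 ratio of at least 0.25 in size, 829 bins (34.6% of those tested) lay above expectation and 1145 (47.7%) below, which left 424 in neither class. With libraries b and c as separate samples (n = 3), 827 lay above and 1147 below. The p-values measure only the spread between these libraries, which may be technical. In 2305 bins all 3 libraries lay on the same side of expectation, and the log2 ratios ranged from -1.75 at the 5th percentile to 0.95 at the 95th. The ratios of library pairs over bins correlated with a rank correlation of 0.994 between b and c, and of 0.988 and 0.987 when a was set against each of them.

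Bins with many listed viewpoints, that is with many captured promoters, received more far signal than bins with none. The mean log2 ratio of the 846 bins with 0 viewpoints was -1.32, -1.12 and -1.12 in libraries a to c (mean -1.22 ± 0.140, SD, n = 2), or 0.429 times the expected signal. In the 657 bins with 1 or 2 viewpoints it was -0.24 ± 0.0346, in the 492 bins with 3 to 5 it was 0.34 ± 0.00245 and in the 227 bins with 6 to 9 it was 0.65 ± 0.0375. The 176 bins with 10 or more had a mean of 0.87, 0.79 and 0.79 in the 3 libraries (0.83 ± 0.0542), or 1.77 times the expected signal. The class means rose in this order in every library, and no library's mean for one class overlapped the next.

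Dense bins thus exceeded empty bins by 2.19, 1.91 and 1.91 on the log2 scale in libraries a, b and c (mean 2.05 ± 0.194, SD, n = 2). The exact two-sided sign-flip test gave p = 0.25, which is the smallest that 3 libraries allow (0.5 with libraries b and c as 1 sample), and the difference was about 10 times its SD. Of the dense bins 174 of 176 lay above expectation and 0 below, while of the empty bins 13 of 846 lay above and 796 below. Across all bins the ratio followed the viewpoint count with a rank correlation of 0.851, 0.848 and 0.849 in the 3 libraries, and with an r of 0.83 on the log2 of the count plus 1. The sums without any expectation gave a rank correlation of 0.846. These correlations describe bins that share libraries and neighbours. Dense bins also hold many captured fragments, and the study found extra signal between fragments captured together. The fragments targeted appear in 0 contacts here. Without all fragments within 10 kb of a viewpoint, dense bins exceeded empty bins by 1.81, with a rank correlation of 0.809. The part of capture in the relation was not tested.

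**Figure D2:**
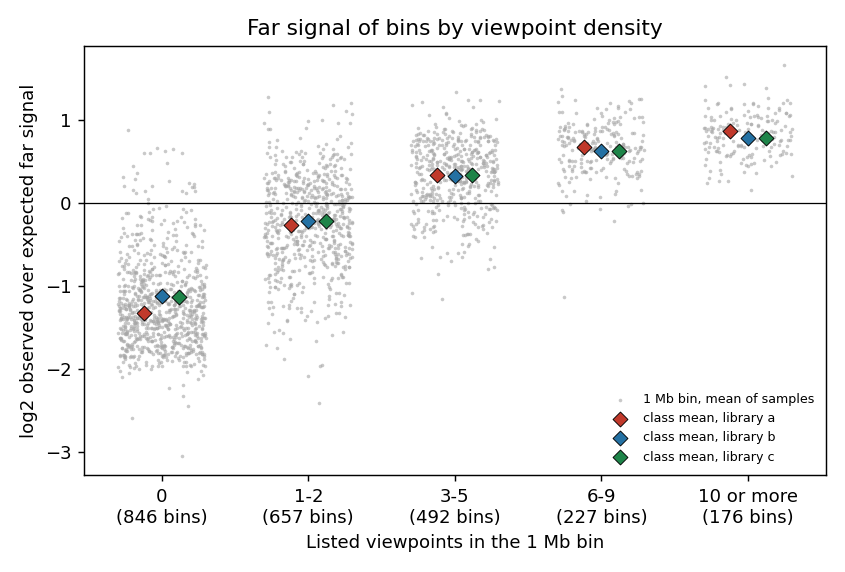
Log2 observed over expected far signal of each tested 1 Mb bin (grey points, mean of 2 samples) by the number of listed viewpoints in it, with the class mean of each library as a diamond. Class means rise from -1.22 in bins with 0 viewpoints to 0.83 in bins with 10 or more, and the single empty bins above 0 stand apart from most of their class.

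The relation held on every autosome, though not to the same degree. The rank correlation per chromosome was between 0.813 and 0.915 on 18 autosomes, with the highest value on chromosome 11 (0.915 ± 0.0126), and it was 0.683 ± 0.00327 on chromosome 13. Chromosome 13 carries vomeronasal receptor, zinc finger and histone clusters, which are taken up below, and their part in this value was not tested. Chromosome 7, which also carries vomeronasal receptor and zinc finger clusters, had 0.869 ± 0.00223. GC content and protein-coding genes moved with viewpoint count: viewpoints and GC correlated with a rank correlation of 0.70, and viewpoints and genes with a rank correlation of 0.81. The bin ratio itself had a rank correlation of 0.75 with GC and of 0.72 with coding genes. Within 5 classes of like GC content the rank correlation with viewpoints was 0.387 in the class with the lowest GC and from 0.695 to 0.728 in the others. Within 5 classes of coding gene count it was 0.266 in the class with 0 or 1 gene and from 0.577 to 0.689 in the others. The part of base composition in the ratios was not tested beyond these values.

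Empty bins were also grouped by their number of coding genes. Among bins with 0 viewpoints, the mean log2 ratio was -1.44 ± 0.212 in 232 bins without a coding gene, -1.24 ± 0.134 in 366 bins with 1 or 2, -0.89 ± 0.0736 in 147 bins with 3 to 5, -0.99 ± 0.0630 in 49 bins with 6 to 9 and -1.28 ± 0.123 in 52 bins with 10 or more. Of these 52 gene-rich bins, 48 lay below expectation and 2 above, a share close to that of all empty bins. Distance from viewpoint-rich bins moved with the ratio mainly next to them: the mean was -1.05 ± 0.0806 in 316 empty bins that bordered a bin with at least 3 viewpoints, -1.32 ± 0.158 at 2 Mb, -1.36 ± 0.183 at 3 or 4 Mb, -1.30 ± 0.194 at 5 to 9 Mb and -1.16 ± 0.184 in the 12 bins at 10 Mb or more.

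The 5 bins with the highest ratios held from 11 to 23 viewpoints each. The highest was chr9:21000001-22000000 (mm9), with 19 viewpoints and 37 coding genes, among them Epor, the receptor for erythropoietin, Smarca4, a chromatin remodeller, and Keap1, the sensor of oxidative stress. Its log2 ratio was 1.75, 1.58 and 1.56 in libraries a, b and c (mean 1.66, SE 0.0802, limma adjusted p = 1.03e-05), or 3.16 times the expected signal. All libraries placed it well above 1, and library a was the highest. Part of this signal came from a single viewpoint named Cdkn2d, which is described below. Without it the log2 ratio was 1.5, 1.37 and 1.35 (mean 1.43), and the bin ranked 3rd.

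The next bin was chr16:91000001-92000000, which holds the interferon and cytokine receptor genes Ifnar1, Ifnar2, Ifngr2 and Il10rb beside the splicing gene Son. Its ratio was 3.00, 2.66 and 2.81 times expectation in the 3 libraries (log2 mean 1.52, SE 0.0768). The viewpoints of Ifnar1 and Ifnar2, named above for their low far shares, are 2 of the 11 in this bin. Bin chr11:4000001-5000000, with Osm, Nf2 and Ewsr1, was at 2.66, 2.75 and 2.75 times expectation. Bin chr7:52000001-53000000, with 68 coding genes including Bax, Ftl1, which stores iron as ferritin light chain, and the ribosomal protein gene Rpl13a, was at 2.81, 2.57 and 2.60 times. Bin chr10:127000001-128000000, with Stat2, Stat6 and Myl6, was at 2.65, 2.46 and 2.87 times. The bin of Epor was the highest in each library while the viewpoint Cdkn2d was included, and the order of the other 4 changed between libraries.

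The 5 lowest bins held 0 or 1 viewpoint, and most held clusters of related genes. The lowest was chr7:23000001-24000000, with 0 viewpoints and a cluster of Vmn1r genes, the pheromone receptors of the vomeronasal organ. Its signal was 0.0909, 0.183 and 0.145 times expectation in libraries a, b and c (mean log2 -3.04, SE 0.180, limma adjusted p = 1.20e-05). Only 583 fragments were listed there against 3190 DpnII sites, so the value rests on few fragments. Bin chr4:112000001-113000000, with 4 Skint genes, a family named for the selection and upkeep of T cells in epithelia, was at 0.154, 0.181 and 0.178 times. Bin chr7:115000001-116000000, with 34 coding genes, all odorant receptors, was at 0.160, 0.227 and 0.218 times, and 2269 of its 3007 fragments were listed. The neighbouring bins chr5:94000001-95000000 and chr5:95000001-96000000, with mostly predicted genes, were at a mean of 0.201 and 0.184 times, with 791 and 864 listed fragments.

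Some bins went against their viewpoint count. The highest bins with 0 viewpoints were chr3:9000001-10000000, at 2.01, 1.75 and 1.62 times expectation, chr8:19000001-20000000, at 1.55, 1.68 and 1.59 times, and chr12:100000001-101000000, at 1.67, 1.48 and 1.48 times. They hold Zbtb10, Zfp704 and Pag1, an adaptor of Src kinases, in the first, a cluster of Defb genes for the antimicrobial beta-defensins in the second, and Foxn3 and Zc3h14 in the third. The lowest bin with at least 6 viewpoints was chr13:62000001-63000000, at 0.469, 0.454 and 0.436 times (limma adjusted p = 1.34e-05). Its viewpoints include the zinc finger genes Zfp808, Zfp934 and Zfp935. The following bins were chr9:37000001-38000000, at 0.820, 0.921 and 0.896 times, where odorant receptors stand beside Tbrg1, and chr11:82000001-83000000, at 0.951, 0.898 and 0.913 times, with the Slfn genes of lymphocyte growth control. Neither of these bins was called: the first was short of the log2 ratio of -0.25, and the latter also had a limma adjusted p of 0.20.

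Called bins formed stretches. The 829 bins above expectation made 412 runs of neighbouring bins, of which 223 were single bins, and the 1145 bins below made 440 runs, of which 186 were single. The longest run above covered chr17:24000001-37000000, with 13 bins, 183 viewpoints and 428 coding genes, at a mean log2 ratio of 0.58, 0.48 and 0.52 in libraries a, b and c. It includes the major histocompatibility complex. The next were chr2:24000001-36000000 with 12 bins and chr15:75000001-86000000 with 11. Of the runs below, chr15:13000001-25000000 had 12 bins with 0 viewpoints and 6 coding genes, at -1.33, -0.92 and -0.94, and chr4:71000001-83000000 had 12 bins with 4 viewpoints and 28 genes, at -1.51, -1.22 and -1.16. In both runs library a lay farthest from 0.

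Gene families clustered in the genome were looked up as bins with at least 3 genes of the family. Against 34.6% of all tested bins above expectation and 47.7% below, bins of zinc finger genes (Zfp), which encode DNA-binding proteins, were above in 21 of 33 and below in 6, with a median log2 ratio of 0.39 beside -0.19 for all bins. Bins of Slc genes, the solute carriers that move nutrients and ions across membranes, were above in 16 of 17 and below in 0, with a median of 0.68. Both families lay in viewpoint-rich bins, with 342 viewpoints in the 33 Zfp bins and 227 in the 17 Slc bins, and bins with 10 or more viewpoints had a mean of 0.83, and the families were not compared with bins of like density. The 4 bins of histone genes were above in 3 and below in 1. Their highest, chr3:96000001-97000000, had log2 ratios of 0.89, 0.87 and 0.92, and the bin with most of them, 29 genes at chr13:23000001-24000000, had 0.77, 0.83 and 0.89. The neighbouring bin chr13:22000001-23000000, with 5 histone genes and 4 viewpoints, was below, at -0.34, -0.24 and -0.23. The bin with 29 histone genes also held 10 vomeronasal receptor genes, and its neighbour below expectation held at least 3 of them too. Within this cluster, adjoining megabases thus lay on opposite sides of expectation in all 3 libraries.

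For families of sensory receptors and immunoglobulin segments the differences from other bins were not tested. Vomeronasal receptor bins were below in 22 of 32 and above in 6, with a median of -0.67, and those without a viewpoint had a median of -1.75 beside -1.31 for all empty bins. Immunoglobulin V bins, the variable segments of antibody genes, were below in 4 of 7 and above in 2, with a median of -1.20. Their lowest, chr6:68000001-69000000 with 27 kappa segments, had -1.76, -1.47 and -1.68. Olfactory receptor bins were mixed: 31 of 63 were below and 22 above, and the median of -0.21 was close to that of all bins. Single bins were far apart, with 45 receptor genes and 1 viewpoint in chr2:87000001-88000000 at -2.33, -1.91 and -1.77, and 5 receptor genes beside 16 viewpoints in chr9:20000001-21000000 at 1.18, 1.12 and 1.12. The latter bin holds 387 far reads of the viewpoint named Cdkn2d, whose listed position is in doubt as described below. Its value was not recomputed without that viewpoint. Listed fragments were 78.9% of all fragments in olfactory, 65.5% in vomeronasal and 64.4% in immunoglobulin V bins, against 78.2% over all bins, and the part of unlisted fragments in these values was not tested.

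The 4 bins of Hox clusters, which hold the transcription factors of body axis patterning, were above in 2 and below in 0. Hoxa at chr6:52000001-53000000 had 0.37, 0.36 and 0.43 and Hoxc at chr15:102000001-103000000 had 0.64, 0.66 and 0.66, while Hoxb at chr11:96000001-97000000 had 0.06, -0.03 and 0.02 and Hoxd at chr2:74000001-75000000 had -0.27, -0.16 and -0.07. Hoxb and Hoxd did not pass the test. Bins of Cyp genes, the cytochrome P450 oxidases, were above in 5 and below in 5 of 11, beside 34.6% above and 47.7% below of all tested bins. The Hox, Serpin and keratin bins are too few to set against these shares. Of the 5 Serpin bins, protease inhibitors, 3 were below and 1 above, and of the 3 keratin bins 1 was below and 1 above. Ribosomal protein genes reached 3 in a single bin, that of Rpl13a named above.

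**Figure D3:**
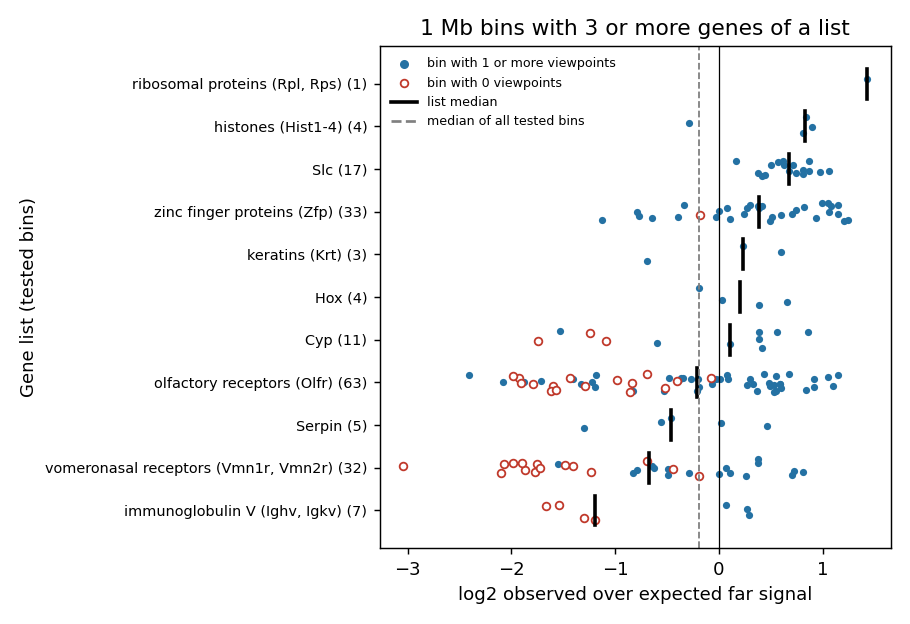
Log2 observed over expected far signal (mean of 2 samples) of each tested 1 Mb bin that holds at least 3 genes of a list, by list, with open circles for bins with 0 viewpoints, a black line at each list's median and a dashed line at the median of all tested bins (-0.19). Solute carrier bins all lie above 0, immunoglobulin and vomeronasal bins lie mostly below, and olfactory receptor bins spread over both sides.

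The partner bins depended on where the viewpoint itself lay. Viewpoints in bins with 10 or more viewpoints had 1.98 ± 0.0956 times the expected signal in other bins of 10 or more, and 0.372 ± 0.0324 times in empty bins. For viewpoints in bins with 1 or 2, the same ratios were 1.45 ± 0.0321 and 0.589 ± 0.0396. The ratio in dense bins rose and the ratio in empty bins fell with each step of the viewpoint's own density, in the mean of the samples. A single score sets the product of like pairs over that of unlike pairs, with dense as at least 6 viewpoints, sparse viewpoints as those with 1 or 2 in their bin and empty bins as the sparse partner. It was 0.90, 0.83 and 0.84 on the log2 scale in libraries a, b and c (mean 0.87 ± 0.0483, SD, n = 2, exact sign-flip p = 0.25 over 3 libraries, the smallest possible). It was above 0 in all libraries, and it was 1.30 when recovered reads replaced the scaled signal.

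**Figure D4:**
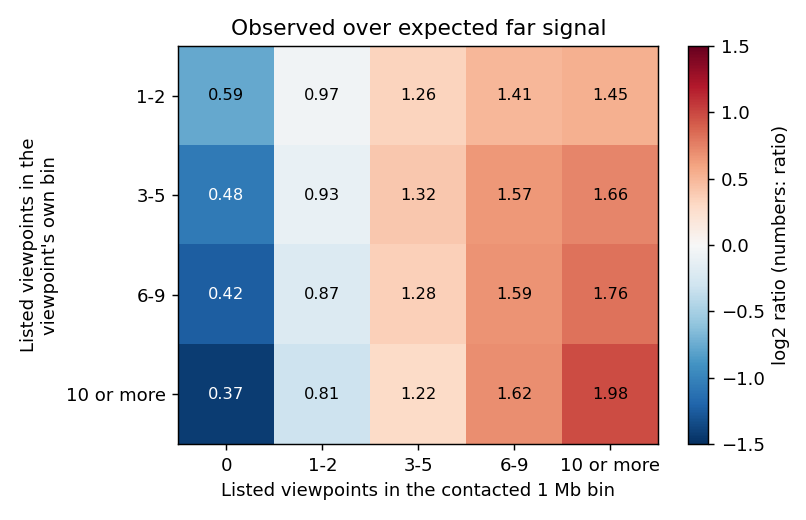
Observed over expected far signal (mean of 2 samples, printed in each cell, colour on a log2 scale) for viewpoints grouped by the number of listed viewpoints in their own 1 Mb bin (rows) and for contacted bins grouped the same way (columns). The ratio runs from 0.37 to 1.98 along the bottom row of densest viewpoints, and from 0.59 to 1.45 along the top row.

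The preference for dense bins was larger in the more distant bands. Between 10 and 20 Mb dense bins had 1.77, 1.67 and 1.67 times the expected signal in the 3 libraries and empty bins 0.450, 0.501 and 0.501 times, so that the ratio of both was 3.63 ± 0.417. It was 3.90 ± 0.425 from 20 to 40 Mb, 4.33 ± 0.491 from 40 to 80 Mb and 4.44 ± 0.407 beyond 80 Mb. Within each library the ratio increased with each band, from 3.93 to 4.73 in library a, from 3.34 to 4.13 in b and from 3.34 to 4.17 in c. The means of neighbouring bands lay within their SD, since library a was higher than the others in all bands. The bands do not hold the same viewpoints and bins. Chromosome 19, for example, is 61.3 Mb long and has no contacts beyond 80 Mb. The part of this change in the rise was not tested.

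Bins near either end of a chromosome had somewhat higher ratios than inner bins with as many viewpoints. For empty bins the mean log2 ratio was -0.89 ± 0.108 in the first 5 tested bins of the chromosomes, -1.0 ± 0.132 in the last 5 and -1.24 ± 0.141 in the rest. For bins with 10 or more viewpoints it was 0.96 ± 0.0773, 0.91 ± 0.0326 and 0.82 ± 0.0539. Only 8 and 7 dense bins lay at the starts and ends, but their means were above that of the rest in every library, with 1.01, 0.90 and 0.90 at the starts, 0.93, 0.88 and 0.89 at the ends and 0.86, 0.78 and 0.78 in the rest.

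The capture design also held promoters that the study picked as inactive in these cells, as controls. Of the viewpoints used, 176 were of this kind and 6804 were not, and the latter are called active here. The inactive viewpoints held more far reads per viewpoint, with 5664887 in all against 21933804 for the active ones. Active viewpoints had 1.84, 1.74 and 1.74 times the expected signal in dense bins and 0.420, 0.467 and 0.465 times in empty bins. For inactive viewpoints the values were 1.048, 0.973 and 0.969 in dense bins and 0.813, 0.887 and 0.889 in empty bins. The log2 preference for dense over empty bins was 2.02 ± 0.159 for active and 0.25 ± 0.168 for inactive viewpoints, and the difference was 1.76, 1.77 and 1.78 in libraries a, b and c (mean 1.77 ± 0.00833, SD, n = 2, exact sign-flip p = 0.25 over 3 libraries, the smallest possible).

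Inactive viewpoints with few listed viewpoints in their bin turned towards empty bins. Where the own bin held 1 or 2 listed viewpoints, 47 inactive viewpoints had 0.557, 0.499 and 0.489 times the expected signal in dense bins and 1.09, 1.17 and 1.18 times in empty bins. The 902 active viewpoints whose own bin held 1 or 2 had 1.52, 1.47 and 1.48 times in dense bins and 0.530, 0.584 and 0.582 times in empty bins. The log2 preference was -1.11 ± 0.204 against 1.43 ± 0.128, opposite in sign in every library. This grouping by the own bin was chosen after the data were seen, and it is not a full match. The count includes the viewpoint itself, with a median of 1 for the inactive and 2 for the active viewpoints. An inactive viewpoint with a count of 1 thus has no active listed viewpoint in its bin. At a count of 1, the log2 preference was -1.31 ± 0.205 for 31 inactive and 1.24 ± 0.137 for 334 active viewpoints. Single viewpoints at the far end, chosen after their values were seen, were Skint4, at 0.212 times in dense and 1.56 times in empty bins, Samd9l, at 0.189 and 1.09 times, and Flrt3, an adhesion protein of development, at 0.363 and 1.73 times. Skint4 and Flrt3 were of the inactive set and Samd9l was not.

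**Figure D5:**
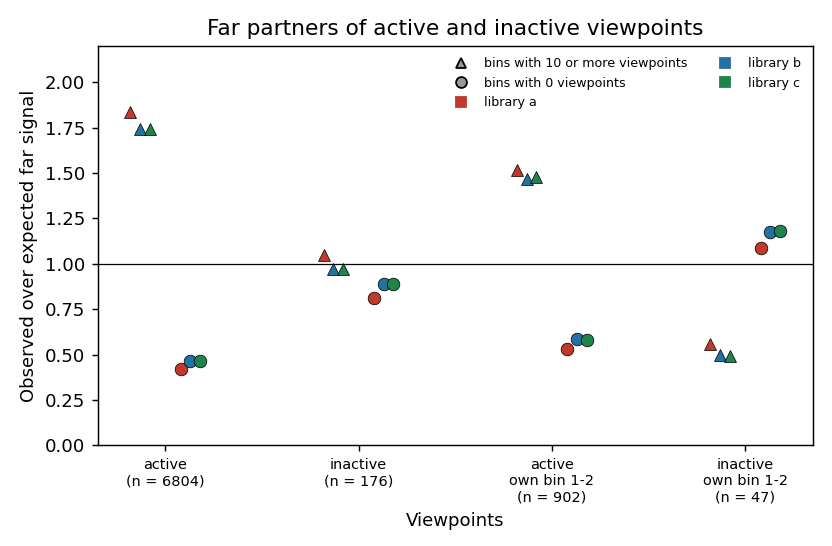
Observed over expected far signal (linear axis from 0) of active and inactive viewpoints in bins with 10 or more viewpoints (triangles) and in bins with 0 viewpoints (circles), with a symbol for each library, for all viewpoints and for those whose own bin held 1 or 2 viewpoints. The line marks a ratio of 1. Triangles lie above circles for active viewpoints, close to them for all inactive viewpoints, and below them for inactive viewpoints with 1 or 2 viewpoints in their bin.

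Counted one by one, 6179 of 6464 viewpoints with at least 1000 events (95.6%) had a higher ratio in dense than in empty bins in all 3 libraries, and 135 had a lower one in all 3. Of the inactive viewpoints 102 of 175 (58.3%) were higher in all 3 libraries and 60 lower, against 6077 and 75 of 6289 active viewpoints. The median ratios were 1.89 in dense and 0.393 in empty bins.

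Viewpoints of erythroid genes were among those with a clear preference. Viewpoints were found for 26 of the 30 genes of an erythroid list, with 34 viewpoints in all, and every one was higher in dense than in empty bins in all 3 libraries, as were all 13 viewpoints of a list of 14 housekeeping genes. With 96.6% of active viewpoints doing the same, these counts set neither list apart. The median ratio in dense bins was 2.41 for erythroid and 2.15 for housekeeping viewpoints, and in empty bins 0.294 and 0.334. The median far share was 27.9% and 28.2%. The alpha-globin viewpoints Hba-1 and Hba-2, whose near-identical copies can share reads, had 2.15 ± 0.0953 and 2.2 ± 0.185 times the expected signal in dense bins and 0.161 ± 0.0514 and 0.139 ± 0.0450 times in empty bins. The beta-globin viewpoints Hbb-b1 and Hbb-b2, likewise close copies, had 2.52 ± 0.164 and 2.57 ± 0.128 times in dense and both about 0.345 times in empty bins. The highest ratios in dense bins were 5.42 ± 0.495 for Sptb, which encodes beta-spectrin of the red cell skeleton and had a single dense bin beyond 10 Mb, and 4.71 ± 0.328 for Ank1, which encodes its partner ankyrin. The lowest of the list was 1.67 ± 0.118 for a viewpoint of the survival gene Bcl2l1. Eef1a1, the translation elongation factor, had the largest far share of both lists, 49.6%, and Slc4a1, the band 3 anion exchanger, the smallest, 20.8%.

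For each of these viewpoints the far bin with the highest ratio was looked up, among bins with at least 10 reads. Bins with much far signal reach that number more readily, so these highest bins are a description. The bins named here were chosen after their values were seen, and many viewpoints were highest at bins with no other gene of the list. All 5 viewpoints of Nfe2, an erythroid transcription factor, were highest at the bin of the housekeeping gene Pabpc1, 66.6 Mb away, with mean ratios from 5.53 to 8.85. They lie side by side within chr15:103082104-103089222 and describe 1 locus, and the read counts ran from 2, 8 and 8 to 35, 52 and 58. That bin had a log2 ratio of 1.38 over all viewpoints. The highest bins of all 47 viewpoints of both lists had a log2 ratio of at least 0.25 over all viewpoints. Of all tested bins 34.6% were called above expectation, but the choice by reads and ratio favours such bins. Their share among bins with at least 10 reads was not counted, so the 47 do not describe the lists. Ank1 was highest at the bin of Klf1, the erythroid transcription factor, 63.4 Mb away, with 5.63, 7.55 and 7.24 times the expected signal from 25, 72 and 69 reads. Klf1 in turn was highest at the bin of Ank1, with 7.08, 7.45 and 6.33 times, though from only 2, 6 and 5 reads. Hba-1 was highest at the bin of Slc4a1, 70.3 Mb away, with 4.12, 4.47 and 5.25 times from 5, 11 and 13 reads. Hba-2, its close copy, was highest at chr11:4000001-5000000 instead, and had 1.94, 5.53 and 3.499 times at the bin of Slc4a1. Slc4a1 in turn was highest at the bin of the alpha-globin genes with 2.22, 11.5 and 4.41 times from 2, 18 and 7 reads. Tfrc, the transferrin receptor, and Cpox, an enzyme of heme synthesis, were both highest at the interferon receptor bin of chromosome 16, with 9.68 and 3.93 times on average. The libraries of the pairs with few reads spread widely.

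Such pairs were therefore counted over the whole list rather than by their highest bin. In 31 ordered pairs of an erythroid viewpoint and a far bin with another erythroid gene, the median ratio was 2.92, beside a median of 1.94 over the same viewpoints' bins with a like number of viewpoints. The pair lay above that level in all 3 libraries in 15 of 31 cases (48.4%) and below it in all 3 in 2. For erythroid viewpoints and bins of housekeeping genes the count was 9 of 18 (50%) above and 0 below, with a median ratio of 3.11 beside 1.56. From housekeeping viewpoints it was 6 of 11 above for bins of erythroid genes and 4 of 8 for bins of other housekeeping genes. The share of pairs above was about the same in all these groups, so the counts do not set pairs of erythroid genes apart. The erythroid pairs rested on 1 to 213 reads with a median of 38, and some came from neighbouring viewpoints of the same gene. How often other bins of like density lay above that level in all 3 libraries was not counted.

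Contacts between bins were compared from both sides. For 18461 pairs of bins with at least 3 viewpoints each, the ratio seen from one bin correlated with that seen from the other with a rank correlation of 0.349, 0.389 and 0.412 in libraries a, b and c and of 0.471 in their sum (Pearson's r 0.604). The value of the sum was above that of each library, and pairs share bins, viewpoints and libraries.

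Focal contacts were also seen between a viewpoint and a whole bin. In 10 cases, chosen after the values were seen, a viewpoint had at least 100 reads in a far bin and at least 10 times the expected number. The viewpoint named Cdkn2d, listed at chr9:123836437-123836997, had 322, 445 and 404 of its 2639 far reads in chr9:21000001-22000000, 299.8 times the expected number. It had another 67, 157 and 163 in the neighbouring bin chr9:20000001-21000000, 101 times the expected number. The bin chr9:21000001-22000000 holds the annotated gene Cdkn2d, which encodes a cell cycle inhibitor, so the listed position of the viewpoint is in doubt. Whether these contacts are far or local ones was not tested. From the other side, Kri1 and Atg4d, both in chr9:21000001-22000000, had 306 and 212 reads in chr9:123000001-124000000, 191 and 91.0 times the expected number. Of the Kri1 reads, 226 fell on chr9:123839979-123840305, the fragment described above as identical to its viewpoint, near the listed position of Cdkn2d. Anp32b, a histone chaperone, had 254 reads in chr4:142000001-143000000, 58.4 times the expected number, Gm9855_Tdg had 439 in chr10:41000001-42000000, 20.6 times, Cyb5d1_Naa38 had 652 in chr11:28000001-29000000, 14.4 times, and Mapk1ip1l had 249 in chr14:90000001-91000000, 11.1 times. The fragment with the most far reads of all was chr9:3000003-3007433 at the start of the chromosome, with 890 reads from 219 of 401 viewpoints. Why these places stood out was not tested. Without the 0.1% of fragments with the highest far signal, 827 bins lay above expectation and 1138 below.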

How the data were processed

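Nuclear-titrated Capture-C used DpnII in 3 libraries of 1 group. Per the labels and the study's methods, the authors trimmed reads with Trim Galore, aligned them to mm9 with Bowtie (versions not given in the sources used here), removed duplicates, and deposited a signal per viewpoint and fragment, scaled with CaptureCompare to 100000 reporters per viewpoint. Positions were checked against NCBIM37 and GENCODE M1. Reads, used for chi-square comparisons and printed counts, were worked back from each viewpoint's smallest signal above 0, which gave whole numbers for 100% of values within 0.01 reads. Expectations used listed fragments, 2 Mb distance classes and each viewpoint's far total. Bins were tested with limma 3.58.1 (R 4.3.3), with n = 2. The code was first run on simulated bins with independent noise in each library and few shifted bins, unlike these data. That run does not bear on the calls given here. The methods give no test for these bins. Inactive viewpoints were matched by position to the study's probe list, and the fragments targeted appear in 0 contacts. Named were the 5 highest and 5 lowest bins, the 3 highest without and 3 lowest with at least 6 viewpoints, the 5 strongest pairs, the 3 highest and 3 lowest far shares, and the lists. Rasgrf1 and other pairs or viewpoints outside this rule were chosen after their values were seen. Members, lists and tests were chosen with earlier results of these data known. Alternatives changed the expectation, weights, filters, widths and libraries. Depth limits single pairs more than sums. Some genes and results of the lists are not reported here.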

Additional observations from a re-analysis of the deposited data

How the results depend on the processing

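No paired analysis was possible because the libraries form 1 group and no groups could be paired by replicate number. Differences between bins or viewpoints were taken within each library. The results given here kept their direction under every alternative run. Values of single bins, gene families, distance bands, chromosome ends and pairs were not recomputed under them, apart from the bin of Epor without the viewpoint Cdkn2d. The counts of bins above and below expectation stayed within 1.5 times under every expectation, weight, filter and library setting run. The bins called were not all the same. Without distance correction, 643 of the 829 bins above and 1062 of the 1145 bins below were called again. Leaving out each library gave 823 to 830 bins above and 1139 to 1148 below, a far share of 33.2% to 34.7%, a slope of -1.26 to -1.23, a dense minus empty difference of 1.91 to 2.05, a rank correlation of 0.848 to 0.850, a like with like score of 0.83 to 0.87 and an active minus inactive difference of 1.77 to 1.78. Recovered reads give more weight to deeply sequenced viewpoints, among them those of the chromosome 9 stretch and the inactive ones. Among viewpoints with own bins of 1 or 2, the 47 inactive ones held 1850770 far reads and the 902 active ones 3418775. Recovered reads gave a far share of 36.1%, a slope of -1.32 and a difference of 1.69. Their rank correlation was 0.835, their score 1.30 and their active minus inactive difference 1.74. Expectations per DpnII fragment and per base gave differences of 2.44 and 2.44, and per base a rank correlation of 0.860. Without distance correction the rank correlation was 0.836, the score 1.10 and the active minus inactive difference 1.74. Without fragments within 10 kb of a viewpoint the difference was 1.81, the rank correlation 0.809 and the active minus inactive difference 1.48. With 500 kb bins the rank correlation was 0.809, and it averaged 0.642 within 5 classes of GC content and 0.550 within 5 classes of gene count. Own bins of 1 against at least 10 viewpoints gave a score of 1.25, and the active minus inactive difference was 2.53 with own bins of 1 or 2, a setting added after seeing the data. Of the highest pairs, 6.5% shared a word of 40 bases, and 3.5% of the 1000 highest shared one of 30. The cause of each shift was not tested. With 1 or few reads per pair, single far contacts were not resolved at this depth.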
